A study of Mus musculus with 9 samples.

Results

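Trib3 and 9 genes of the unfolded protein response were followed across the main olfactory epithelium of 9 mice. The 10 genes were Trib3, Ddit3, Atf4, Atf5, Chac1, Asns, Hspa5, Eif2ak3, Sesn2 and Nupr1, of 55291 genes in the deposited table, and all 10 were among the 23225 genes with enough counts to be tested. Trib3 was chosen by its higher level in Ms4a6c knockout than in wild-type mice, and the other 9 were chosen by their place in the same stress pathway. The question was whether the pathway or Trib3 alone differed between genotypes.

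RNA was sequenced from 3 wild-type C57BL/6 mice, 3 Ms4a6c-/- mice and 3 Ms4a cluster-/- mice on C57BL/6, all 8 to 12 weeks old. The Ms4a6c line was made by homologous recombination and the cluster line, which lacks the tandem array of Ms4a genes, with CRISPR/Cas9. Both are germline deletions, so cells other than sensory neurons carry them too. The wild-type mice were littermates, although the labels do not say of which line.

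Cells respond to unfolded protein in the endoplasmic reticulum through the sensors PERK (encoded by Eif2ak3), IRE1 and ATF6. PERK phosphorylates the translation factor eIF2alpha, which slows protein synthesis and favors translation of the transcription factors ATF4 and ATF5. These switch on the transcription factor CHOP (Ddit3), enzymes and transporters of amino acid supply, and the pseudokinase TRIB3, which in turn holds back ATF4 and CHOP. In olfactory sensory neurons the same PERK and ATF5 branch is known to be engaged by the first odorant receptor a cell makes and to stop the choice of another.

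**Figure D1:**
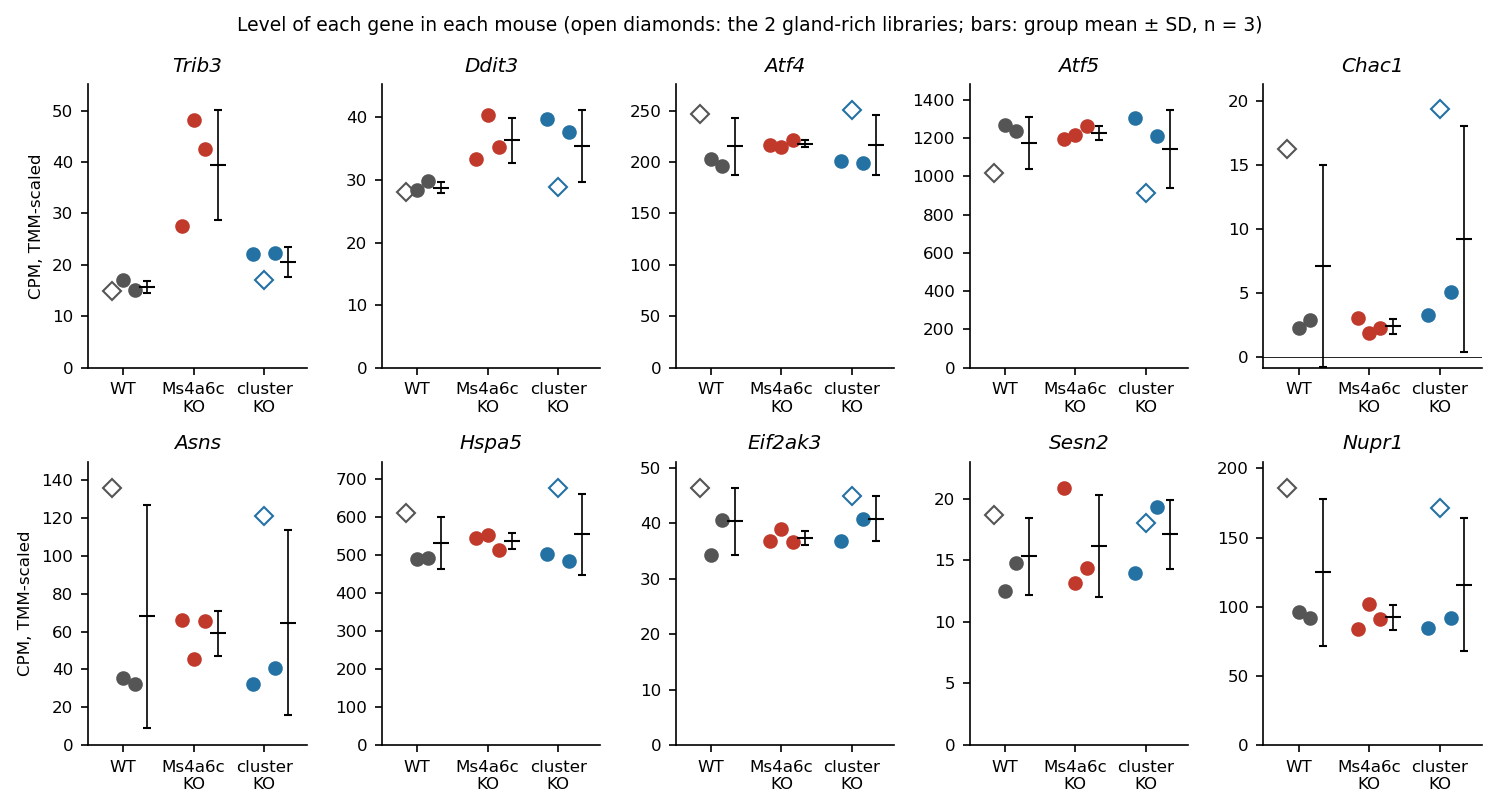
Level of each of the 10 genes in each of the 9 mice, in TMM-scaled CPM (counts scaled to a common library total), by genotype, with the group mean and SD. Trib3 lay between 27.5 and 48.2 in Ms4a6c knockout mice and between 14.9 and 22.3 in the other 6, whereas Chac1, Asns and Nupr1 were high in the 2 gland-rich libraries, drawn as open diamonds.

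The promoter stretches below were chosen to show which members carry the response elements through which the pathway is known to act. They come from RefSeq promoter windows on GRCm38.p6, which run from 250 bases before to 50 bases after each transcription start and were found for all 10 genes. The search covered 2 elements on both strands, the C/EBP-ATF element spelled TGATGNAA and the endoplasmic reticulum stress element spelled CCAAT, any 9 bases, CCACG. The C/EBP-ATF element was present in the windows of Trib3, Chac1, Asns and Nupr1, 4 of the 10 genes, against 3.97% of all 32851 windows. The stress element was present in the window of Hspa5 alone among the 10, against 0.119% of all windows. In Trib3 the match read TGATGTAA on the opposite strand and began 14 bases after the start. A further spelling, TGNTGCAA, was searched after the Trib3 sequence had been seen. It overlaps the first spelling where the third base is A, it was found 33 bases before the Trib3 start and also in the windows of Chac1, Nupr1 and Sesn2, and 3.22% of all windows hold it. Capitals mark the matched bases, each stretch reads along its gene, and the matches of Chac1 and Nupr1 stand in it as their reverse complement. The Trib3 stretch marks the further spelling TGNTGCAA, since its TGATGTAA match lies after the start. Those of Chac1, Asns and Nupr1 mark TGATGNAA, and that of Hspa5 marks the stress element. The Sesn2 match to the further spelling is not printed. The Asns, Hspa5 and Nupr1 stretches lie inside the longer span that GENCODE gives those genes.
Trib3, chr2:152344075-152344104, minus strand: cgggtcacagaTGGTGCAAtcccgggccgc
Chac1, chr2:119351038-119351067, plus strand: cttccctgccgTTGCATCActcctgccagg
Asns, chr6:7693214-7693243, minus strand: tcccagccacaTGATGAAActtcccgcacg
Nupr1, chr7:126625562-126625591, minus strand: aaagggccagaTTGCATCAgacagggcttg
Hspa5, chr2:34772020-34772048, plus strand: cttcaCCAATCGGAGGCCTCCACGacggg

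Expected counts summed to between 13954591 and 21987174 per mouse. Levels are CPM, the counts of a gene relative to the library's total, after TMM scaling, a scaling that sets the bulk of genes equal between libraries, and 3 counts, taken as the limit of detection, stood at 0.123 to 0.299 CPM. Ms4a6c had 54 to 90.3 expected counts in wild-type mice, 0 to 2.35 in Ms4a6c knockout mice and 0 in each of the 3 cluster knockout mice, which fits the labels. A pair of libraries stood apart. In wild type 1 and cluster knockout 2 the summed level of 12 gland genes was 224391 and 227271 CPM, against 15508 to 48447 CPM in the other 7, and a single gland gene, Bpifb9b, took 10.4% and 10.2% of all counts. They are called gland-rich here, and where a printed fold change of a member or of the end of a list turned direction or moved by over 1.5 times without them, the value without them stands beside it. The other 7 were not uniform. Ms4a6c knockout 2 was the highest of them at 48447 CPM, with Bpifb9b at 3.28% of all counts, and cluster knockout 3 was next at 22738 CPM. By Xist, wild type 1, Ms4a6c knockout 2 and 3 and cluster knockout 3 were male and the other 5 were female. The epithelium was recognizable in every library, with a summed level of 9136 to 11698 CPM for 6 markers of mature olfactory sensory neurons.

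Trib3 (chr2:152337422-152344032, minus strand, GRCm38) encodes the feedback pseudokinase of the pathway. In wild-type mice its level was 14.9, 17.1 and 15.1 CPM, in Ms4a6c knockout mice 27.5, 48.2 and 42.4 CPM, and in Ms4a cluster knockout mice 22.1, 17.1 and 22.3 CPM. All 3 Ms4a6c knockout mice were above all 6 others, as were 3.4% of all tested genes. These levels stood on 172 to 777 expected counts per mouse. The Ms4a6c knockout mean of 39.4 ± 10.7 CPM was 2.5-fold the wild-type mean of 15.7 ± 1.23 CPM (SD, n = 3 mice in both). On the log2 scale this was 1.32 with a standard error of 0.19. Since Trib3 was chosen on this difference, it is a description and not a test. The 3 Ms4a6c knockout mice differed among themselves more than the wild-type mice did, with the female at 27.5 CPM and the males at 42.4 and 48.2 CPM. In wild type the male stood at 14.9 CPM beside females at 15.1 and 17.1, and in the cluster knockout the male stood at 22.3 CPM beside females at 17.1 and 22.1. With sex as a term the log2 fold change was 1.20, and without both gland-rich libraries it was 1.29.

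Ddit3 (chr10:127290774-127296288, plus strand), which encodes CHOP, a factor known to drive Trib3 transcription under stress, had a level of 28.1, 28.4 and 29.8 CPM in wild-type mice, 33.4, 40.3 and 35.2 CPM in Ms4a6c knockout mice, and 39.7, 28.9 and 37.6 CPM in Ms4a cluster knockout mice. The Ms4a6c knockout values did not overlap those of the wild type, whereas the gland-rich cluster knockout 2 fell within the wild-type range. The log2 fold change was 0.33 (SE 0.12) in the Ms4a6c knockout and 0.31 (SE 0.12) in the cluster knockout, both against the same 3 wild-type mice, and neither passed the adjusted test (edgeR quasi-likelihood test with Benjamini-Hochberg adjustment over all genes, adjusted p = 0.327 and 0.968). Without both gland-rich libraries the adjusted p was 0.118 and 0.319. The span of Ddit3 overlaps Mars1 on the opposite strand. The library kit keeps strand, but whether counting used it is not given in the sources used here.

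Of the transcription factors upstream, Atf4 and Atf5 were abundant and close to level. Atf4, the factor translated when eIF2alpha is phosphorylated, was at 247, 203 and 196 CPM in wild-type mice, 217, 215 and 221 CPM in Ms4a6c knockout mice, and 201, 250.3 and 199 CPM in cluster knockout mice. Its log2 fold change was 0.02 (SE 0.11) in the Ms4a6c knockout, with a 95% interval from -0.22 to 0.25, and 0.13 without both gland-rich libraries (edgeR adjusted p = 0.248). Atf5, the factor engaged by odorant receptor expression, was at 1015, 1266 and 1235 CPM in wild-type mice, 1193, 1214 and 1264 CPM in Ms4a6c knockout mice, and 1302, 914 and 1208 CPM in cluster knockout mice. The low Atf5 values in wild type and cluster knockout were those of the gland-rich libraries. The span of Atf5 overlaps Nup62 and Il4i1 on the opposite strand. Both factors are controlled at translation, which RNA levels do not measure.

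Eif2ak3, the gene of the sensor PERK, was at 46.3, 34.2 and 40.6 CPM in wild-type mice, 36.8, 38.9 and 36.6 CPM in Ms4a6c knockout mice, and 36.8, 45 and 40.7 CPM in cluster knockout mice. Hspa5, which encodes the chaperone BiP that holds the sensors inactive, was at 611, 491 and 492 CPM in wild-type mice, 545, 552 and 513 CPM in Ms4a6c knockout mice, and 503, 678 and 484 CPM in cluster knockout mice. For both genes the values of every pair of genotypes overlapped, and the log2 fold changes in the Ms4a6c knockout were -0.11 (SE 0.11) and 0.01 (SE 0.14). Without both gland-rich libraries they were 0.0016 and 0.13, with adjusted p = 0.996 and 0.280 by edgeR.

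The remaining members are targets of ATF4 and CHOP. Asns, asparagine synthetase, was at 136, 35.5 and 32.4 CPM in wild-type mice, 66.2, 45.5 and 65.5 CPM in Ms4a6c knockout mice, and 32.2, 121 and 40.8 CPM in cluster knockout mice. Chac1, which degrades glutathione, was at 16.2, 2.27 and 2.90 CPM in wild-type mice, 3.07, 1.86 and 2.29 CPM in Ms4a6c knockout mice, and 3.31, 19.3 and 5.06 CPM in cluster knockout mice. Nupr1, a stress-induced chromatin protein, was at 186, 96.2 and 91.9 CPM in wild-type mice, 84.1, 102 and 91.2 CPM in Ms4a6c knockout mice, and 84.6, 172 and 91.7 CPM in cluster knockout mice. In each of these genes the high value of the wild type and that of the cluster knockout belonged to the gland-rich libraries. Sesn2, a sestrin that restrains the growth kinase mTORC1, was at 18.7, 12.5 and 14.8 CPM in wild-type mice, 20.9, 13.2 and 14.4 CPM in Ms4a6c knockout mice, and 14, 18 and 19.3 CPM in cluster knockout mice, with all 3 genotypes overlapping.

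In Ms4a6c knockout against wild-type mice, the contrast on which Trib3 was chosen, 1 of the 10 genes passed the adjusted test, Trib3 itself, where 0.435% of all tested genes passed. At an unadjusted p under 0.05 there were 2, Trib3 and Ddit3, against 10.5% of all genes, and the same 2 had values that did not overlap, against 18.3% of all genes. With all 9 libraries the median log2 fold change of the other 9 genes was 0.014, and that of all tested genes was -0.0016. The widest intervals were those of Chac1, from -3.36 to 0.31, and Asns, from -1.51 to 1.12, so that changes of several fold in these genes were not detectable with all 9 libraries. Without both gland-rich libraries Asns turned direction, from a log2 fold change of -0.19 to 0.80 (SE 0.16, edgeR adjusted p = 0.0549). Its 45.5 to 66.2 CPM in the Ms4a6c knockout lay above the 35.5 and 32.4 CPM of the remaining wild-type mice. Chac1 then stood at -0.08. Ddit3, Atf4 and Hspa5 were also above both of those wild-type mice in every Ms4a6c knockout mouse. Atf4 stood at 215 to 221 against 203 and 196 CPM, and Hspa5 at 513 to 552 against 491 and 492 CPM. The values overlapped for Atf5, Chac1, Eif2ak3, Sesn2 and Nupr1. These libraries were left out after the data were seen, and the share of all genes above in this way was not counted. The number of members above is therefore a description and cannot be set against that of other genes. Trib3 lost its call without wild type 2 (adjusted p = 0.0602), without wild type 3 (0.0848) or without Ms4a6c knockout 3 (0.0691).

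**Figure D2:**
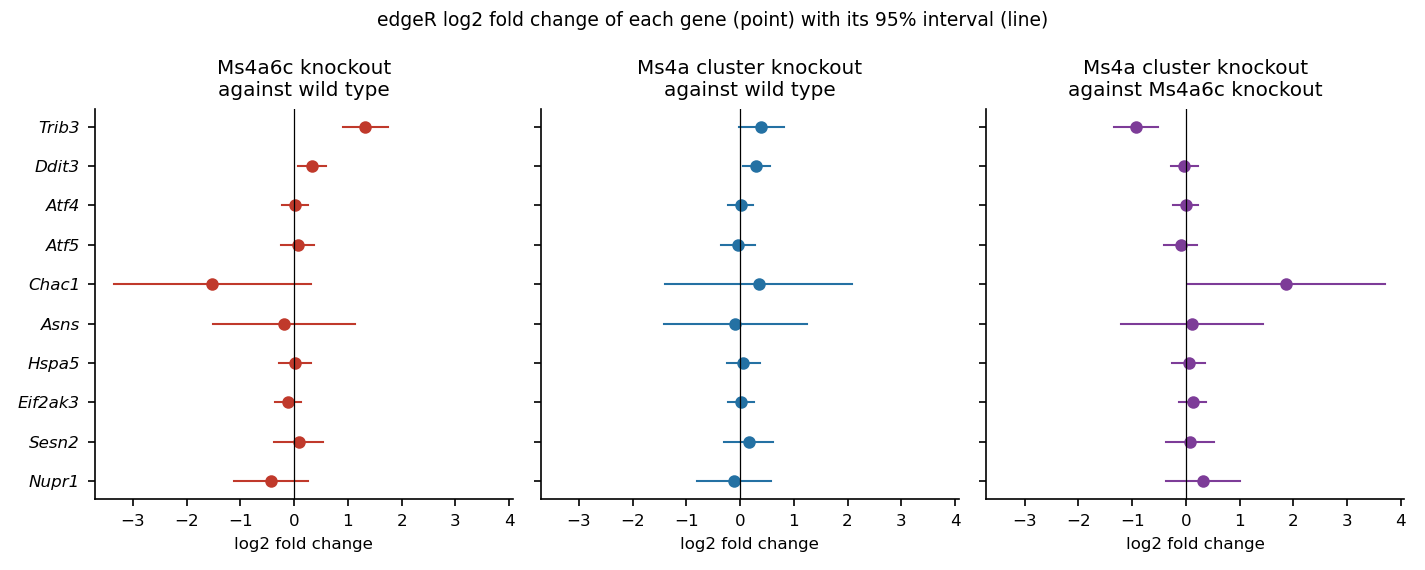
Log2 fold change of each of the 10 genes with its 95% interval from edgeR, for each pair of genotypes. In Ms4a6c knockout against wild type the interval of Trib3 ran from 0.90 to 1.74, that of Ddit3 from 0.08 to 0.59, and those of the other 8 genes included 0.

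In Ms4a cluster knockout against wild-type mice, a contrast not used to choose Trib3 although it shares the wild-type mice, 0 of the 10 genes passed edgeR's adjusted test, where 0.0258% of all genes passed, and 0 passed with DESeq2. At an unadjusted p under 0.05 there was 1, Ddit3, against 4.93% of all genes. Trib3 had a log2 fold change of 0.39 (SE 0.19, 95% interval -0.03 to 0.82, edgeR adjusted p = 0.968). It was the only member whose values did not overlap, against 9.86% of all genes, with 17.14 CPM in the lowest cluster knockout mouse beside 17.09 CPM in the highest wild-type mouse. Scaled by plain library size these values overlapped, since cluster knockout 2 then stood at 12.1 CPM and wild-type mice at 10.4 to 18.8 CPM. With all 9 libraries the median log2 fold change of the other 9 genes was 0.013.

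The direct comparison of the knockouts asked whether Trib3 differed between them. Trib3 was lower in the cluster knockout than in the Ms4a6c knockout by a log2 fold change of -0.93 (SE 0.19), with values that did not overlap. The Ms4a6c knockout values chose Trib3, so this too is a description. Under edgeR 0 of the 10 genes passed the adjusted test, where 0.443% of all genes passed, and 2 had an unadjusted p under 0.05, Trib3 and Chac1, against 9.38% of all genes. The same 2 did not overlap, against 16% of all genes. With DESeq2 1 passed, Trib3. For Chac1 the log2 fold change of 1.87 (SE 0.83) fell to 0.77 without both gland-rich libraries.

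Other genes of the pathway were taken from 9 lists of 151 genes in all, every one of which was tested. No list gene passed edgeR's adjusted test or DESeq2's in any pair of genotypes. At an unadjusted p under 0.05 there were 10 of 151 in the Ms4a6c knockout against wild type, 2 higher and 8 lower, or 6.62% beside 10.5% of all genes. In the cluster knockout against wild type there were 3, or 1.99% beside 4.93%, and between the knockouts 5, or 3.31% beside 9.38%. The median log2 fold change over the lists was -0.034 for the Ms4a6c knockout and 0.011 for the cluster knockout, beside -0.0016 and 0.0072 over all genes, and without both gland-rich libraries it was 0.027 and 0.036.

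The first list held 15 genes of eIF2alpha and its phosphorylation and of the translation factor eIF2B. Its largest and smallest log2 fold changes in the Ms4a6c knockout were those of Eif2ak4, the amino acid sensor GCN2, at 0.23 (SE 0.11), and Dnajc3, an inhibitor of PERK, at -0.25 (SE 0.21). In the cluster knockout they were those of Ppp1r15b, a subunit of the eIF2alpha phosphatase, at 0.17 (SE 0.07), and Eif2ak2, the kinase PKR, at -0.25 (SE 0.11). For the 11 partners of ATF4 and other stress factors, Mafg at 0.10 (SE 0.09) and Atf3 at -0.18 (SE 0.32) marked the ends in the Ms4a6c knockout, and Jdp2 at 0.09 (SE 0.09) and Atf7 at -0.14 (SE 0.07) in the cluster knockout. No gene of either list passed the adjusted test. Without both gland-rich libraries Dnajc3 stood at 0.03 and Atf3 at -0.01 in the Ms4a6c knockout, and in the cluster knockout Jdp2 stood at -0.01, Eif2ak2 at -0.40, Ppp1r15b at 0.27 and Atf7 at -0.05.

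The targets of ATF4 for amino acid supply had, over 21 genes, a median log2 fold change of -0.10 for the Ms4a6c knockout and 0.12 for the cluster knockout. In the Ms4a6c knockout they ran from Slc7a11, the cystine carrier, at 0.19 (SE 0.17) to Pycr1, an enzyme of proline synthesis, at -1.59 (SE 0.89), and in the cluster knockout from Cth, which makes cysteine, at 0.35 (SE 0.19) to Slc3a2, the heavy chain of amino acid carriers, at -0.09 (SE 0.10). Pycr1 was at 50.7 and 50.2 CPM in the gland-rich libraries and at 5.35 to 8.42 CPM in the other 7, and without both gland-rich libraries its log2 fold change in the Ms4a6c knockout was -0.08, and the median of the list turned from -0.10 to 0.11. The 13 genes of tRNA charging ran from Wars at 0.14 (SE 0.06) to Tars at -0.26 (SE 0.18) in the Ms4a6c knockout, the tryptophan and threonine enzymes, and from Tars at 0.12 (SE 0.18) to Eprs at -0.06 (SE 0.09) in the cluster knockout. Without both gland-rich libraries Tars stood at -0.08 and 0.05 in these comparisons, and in the cluster knockout Eprs stood at -0.12 and Slc3a2 at -0.03.

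Of 22 other targets of ATF4 and CHOP, the gene with the lowest adjusted p in the Ms4a6c knockout was Ddit4, an inhibitor of mTORC1, at -0.30 (edgeR adjusted p = 0.299), opposite in direction to Trib3. Bbc3, the proapoptotic PUMA, at 0.33 (SE 0.15) and Eif4ebp1, a repressor of cap-dependent translation, at -0.78 (SE 0.49) were the ends of the list, and without both gland-rich libraries Eif4ebp1 stood at -0.11. In the cluster knockout these were Tnfrsf10b, a death receptor, at 0.51 (SE 0.28) and Vegfa at -0.16 (SE 0.24). The 13 genes of the IRE1 and ATF6 arms ran from Atf6b at 0.16 (SE 0.07) to Creb3l1 at -0.53 (SE 0.21) in the Ms4a6c knockout and from Creb3l4 at 0.17 (SE 0.15) to Creb3l1 at -0.23 (SE 0.20) in the cluster knockout. Creb3l1, a membrane-bound factor of secretory cells, was the only list gene called under any alternative, at -0.37 with the gland sum as a covariate (adjusted p = 0.0461). It stood at -0.27 in the Ms4a6c knockout without both gland-rich libraries (edgeR adjusted p = 0.185).

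The 28 chaperones and degradation factors of the endoplasmic reticulum had a median log2 fold change of -0.07 for the Ms4a6c knockout and -0.0040 for the cluster knockout. They ran from the disulfide isomerase Pdia4 at 0.14 (SE 0.07) to Derl3, a factor of protein retrotranslocation, at -1.32 (SE 1.01) in the Ms4a6c knockout, and from Derl3 at 0.23 (SE 0.97) to Edem3 at -0.13 (SE 0.21) in the cluster knockout. The fold change of Derl3 in the Ms4a6c knockout turned direction without both gland-rich libraries, to 0.71 (SE 0.29, edgeR adjusted p = 0.288), with 3.16, 5.64 and 3.82 CPM in the knockout above 2.55 and 2.56 CPM in the remaining wild-type mice. In the cluster knockout Derl3 then stood at 0.67, and the list medians at 0.05 and 0.02. Sdf2l1 of this list, named after its values were seen, came nearest to the threshold of all list genes in the Ms4a6c knockout without these libraries. It stood at 0.37 (SE 0.08, edgeR adjusted p = 0.0525), beside 0.10 with all 9 libraries. The next was Ebf1 of the receptor feedback list, which was lower, at -0.24 (edgeR adjusted p = 0.107). Of 8 Tribbles relatives and partners, Trib1, a relative that binds the ubiquitin ligase COP1, was at 35.9, 34.6 and 34.5 CPM in wild-type mice and at 30.7, 29.2 and 32.2 CPM in Ms4a6c knockout mice (edgeR adjusted p = 0.364), below rather than above the wild type. The ends of this list were Stk40 at 0.10 (SE 0.11) and Cdc25a at -0.52 (SE 0.23) in the Ms4a6c knockout, and Trib2 at 0.14 (SE 0.07) and Cdc25a at -0.10 (SE 0.23) in the cluster knockout. In the Ms4a6c knockout Cdc25a stood at -0.29 and Stk40 at -0.0069 without both gland-rich libraries. The 20 genes of odorant receptor feedback and trafficking stayed between Nfe2l3 at 0.19 (SE 0.09) and Ebf1 at -0.18 (SE 0.10) in the Ms4a6c knockout, and between Emx2 at 0.19 (SE 0.13) and Ric8b at -0.16 (SE 0.10) in the cluster knockout, where Ric8b stood at -0.09 without both gland-rich libraries. Over the 151 list genes, leaving out these libraries turned the sign of the fold change for 39 in the Ms4a6c knockout and 27 in the cluster knockout. How many of all genes turned sign was not counted. Of the list genes 0 then passed the adjusted test in either, where 350 and 8 of all 22710 genes tested did.

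**Figure D3:**
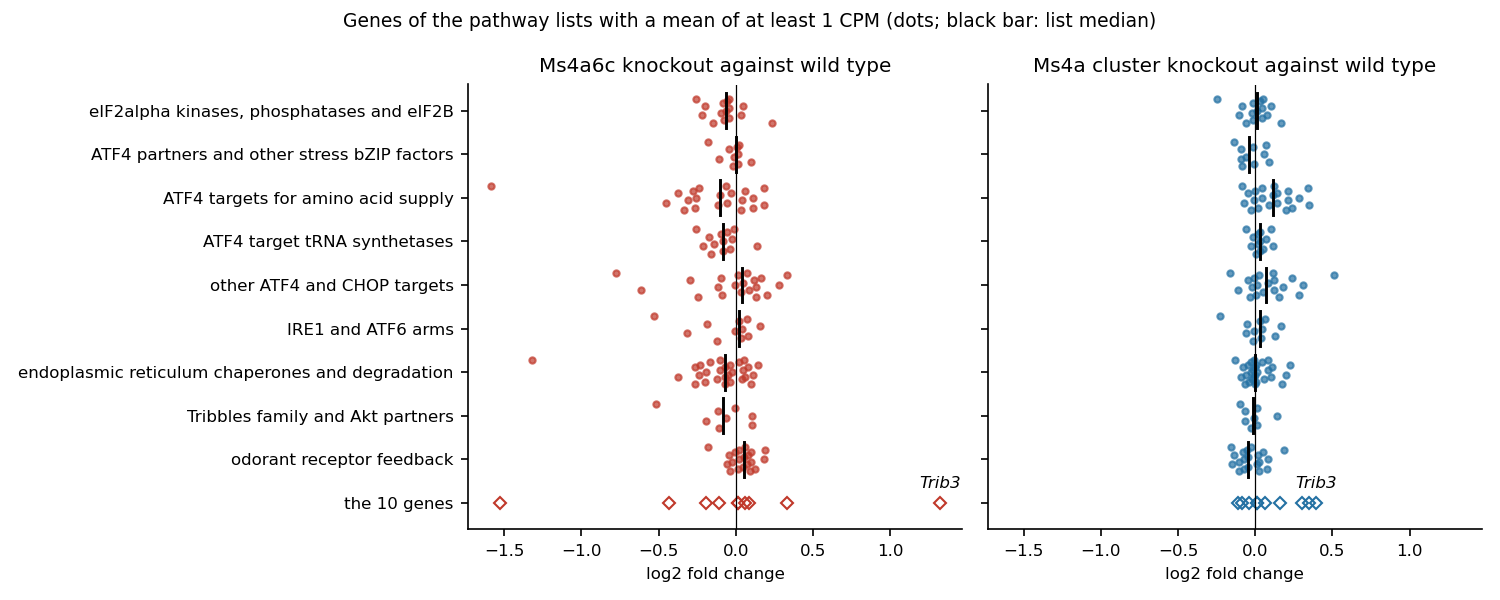
Log2 fold change of each pathway list gene with a mean of at least 1 CPM (dots, 146 genes) with the list median (black bar), and of the 10 genes (diamonds), in each knockout against wild type. Trib3 stood at 1.32 in the Ms4a6c knockout, where the largest change upward among the list genes was 0.33, and at 0.39 in the cluster knockout. Trib3, unlike the list genes, was chosen by its rise in the Ms4a6c knockout, so its place above them there is not a test.

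More of the 10 genes set the gland-rich libraries apart than set any pair of genotypes apart. Both libraries lay above all 7 others for 6 of the 10 genes, namely Atf4, Chac1, Asns, Hspa5, Eif2ak3 and Nupr1, where 9.9% of all tested genes did so, and below all 7 for Atf5, where 7.94% did so. Trib3, Ddit3 and Sesn2 lay between. Relative to the median of the other 7, the mean of both was 6.13-fold for Chac1, 3.15-fold for Asns, 1.95-fold for Nupr1, 1.28-fold for Hspa5, 1.24-fold for Eif2ak3, 1.23-fold for Atf4 and 0.781-fold for Atf5. These directions held with DESeq2's size factors. By plain library size the median of all genes was -0.66 on the log2 scale, with 60.4% of all genes below the other 7 libraries and 1.27% above. Under that scaling 7 members were below, namely Trib3, Ddit3, Atf4, Atf5, Hspa5, Eif2ak3 and Sesn2. The 3 above were Chac1, Asns and Nupr1. These libraries are 1 wild-type and 1 knockout mouse and were told apart by gland genes, so no test was made. In bulk tissue more gland cells and more RNA of these genes per gland cell cannot be told apart.

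The list genes were divided along the same line. Of the 28 chaperones and degradation factors, 23 were above in both gland-rich libraries and 0 below, as were 11 and 0 of the 13 tRNA charging genes and 13 and 1 of the 21 amino acid supply genes. Of the 20 genes of odorant receptor feedback, 0 were above and 8 below, where 9.9% of all genes were above and 7.94% below. By plain library size, which lowered the median of all genes, 1.27% of all genes were above and 60.4% below. The counts above and below were then 1 and 21 for the chaperones, 0 and 12 for tRNA charging, 5 and 9 for amino acid supply and 0 and 20 for receptor feedback. Measured against the median of all genes, the list medians on the log2 scale were 0.27, 0.25, 0.34 and -0.17 under TMM and 0.26, 0.27, 0.33 and -0.18 by plain library size. The examples that follow were chosen after their values were seen. P4hb, a disulfide isomerase, was at 764 and 732 CPM against 445 to 484 CPM, and Derl3 at 26.7 and 29.9 CPM against 2.55 to 5.64 CPM. Xbp1, the factor that IRE1 activates, was at 291 and 294 CPM against 145 to 168 CPM. Adcy3, the cyclase of odor transduction, was at 1143 and 1016 CPM against 1230 to 1336 CPM. Of the cell markers, 5 of 6 of mature sensory neurons and 3 of 6 of sustentacular cells were below. The sum of the 12 gland genes chose these libraries, so the 6 of them that were above are a description. They were Bpifb9b, Obp1a, Obp2a, Lcn11, Aqp5 and Sox9, whereas Bpifb3, Bpifb4, Bpifa1, Muc5b, Dmbt1 and Agr2 overlapped the other 7 libraries.

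**Figure D4:**
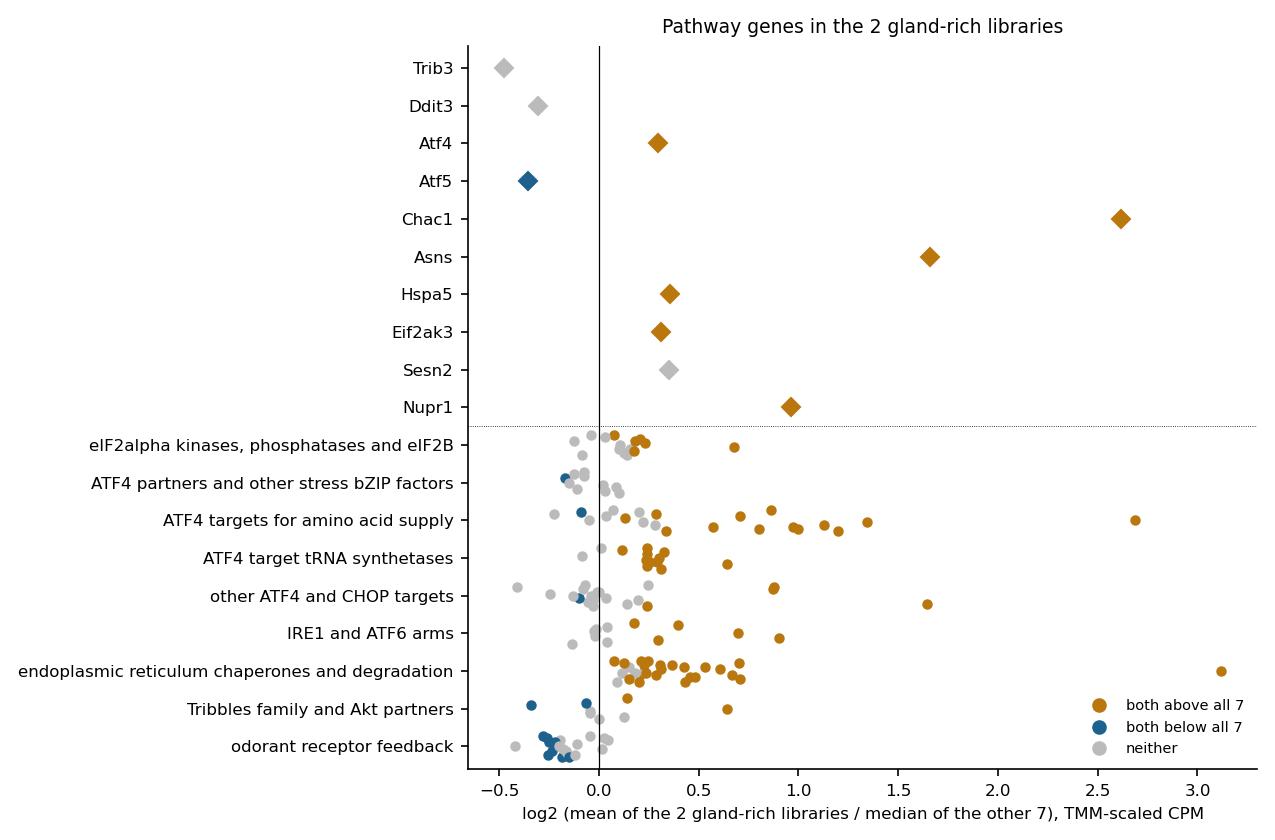
Log2 ratio of the mean of the 2 gland-rich libraries to the median of the other 7, in TMM-scaled CPM, for the 10 genes (diamonds) and the genes of the 9 lists (dots), colored by whether both libraries lay above or below all 7. Chac1 and Asns stood at 2.61 and 1.66, Trib3 and Ddit3 at -0.48 and -0.31.

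Marker lists were also compared between the Ms4a6c knockout and the other 6 mice. The summed level of 6 sustentacular cell markers was 22245 to 23915 CPM in Ms4a6c knockout mice and 17440 to 19781 CPM in the other 6, with 3 of the 6 markers above all 6 mice, as were 3.4% of all genes, and every marker present. Of 7 macrophage markers the sum was 107 to 113 CPM against 125 to 161 CPM, with 3 below all 6, as were 3.22% of all genes. None of these markers passed the adjusted test, and neither did any of the neuronal, basal or blood cell markers. Of 12 gland markers 1 passed, Agr2, at 0.31 (SE 0.05, edgeR adjusted p = 0.0354). The part of these cell types in the level of Trib3 was not tested.

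The genes around each member on its chromosome were also counted. Of 174 tested genes within 5 Mb of Trib3, 4 passed the adjusted test in the Ms4a6c knockout, 2.30%, where 0.435% of all genes did. They were Ahcy at -1.63, Uqcc1 at -0.37 and Map1lc3a at -0.36 on the log2 scale, and Gm14226, which had 59, 94 and 108 expected counts in wild-type mice and 1, 0 and 0 in Ms4a6c knockout mice, under the limit of 3 counts, all lower in the knockout and 2674 to 3503 kb beyond Trib3. Ahcy is 99.7% identical to Gm4737 over 2083 bases, so its counts are uncertain. The stretches found shared between Gm14226 and other genes span 308 to 421 bases, of 3243 exon bases, so the uncertainty concerns a part of its sequence. No near-identical transcript was found for any of the 10 members. Next to Trib3, Gm14164 at 1.64 kb and Gm14165 at 9.58 kb, named after their values were seen, did not pass (edgeR adjusted p = 0.325 and 0.242). Gm14164 had 0, 0 and 1 expected counts in wild-type mice and 9, 2 and 4 in Ms4a6c knockout mice, and Gm14165 had 0, 0 and 2 against 19.3, 5.01 and 8.22. Around Chac1, 13 of 128 genes passed, 10.2%, and around Asns 1 of 52, Rnps1-ps, a pseudogene whose reads counting could share with Rnps1, while around the other 7 members 0 did. In the cluster knockout against wild type 0 genes passed around any member. Chromosome 2, which carries Trib3, Chac1 and Hspa5, held 28 of the 101 genes called in the Ms4a6c knockout, 1.46% of its 1916 tested genes. The share was 1.66% on chromosome 12 and 1.13% on chromosome 3, which carry none of the members, and at most 0.558% on the others.

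**Figure D5:**
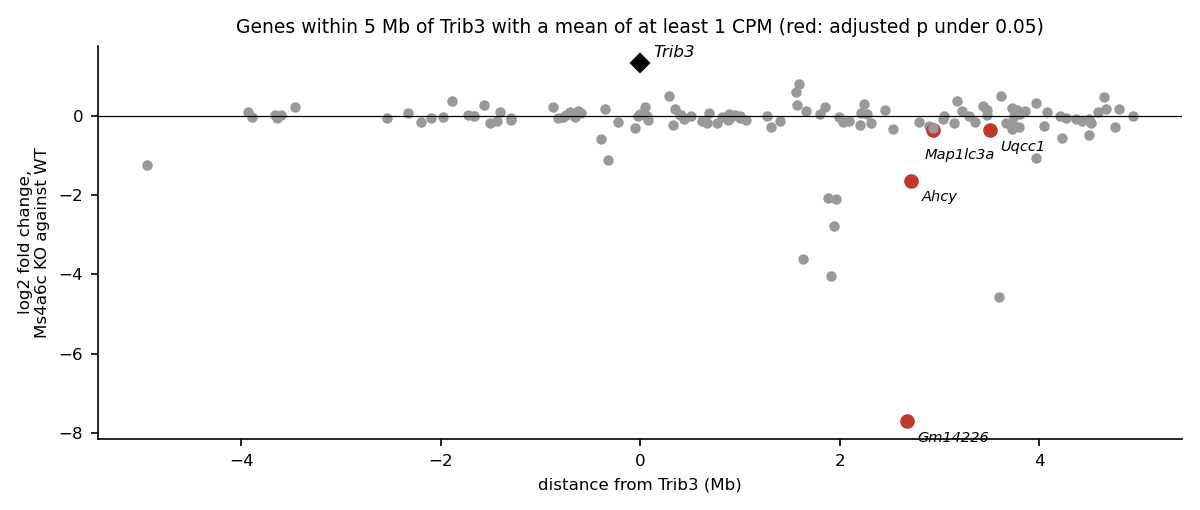
Log2 fold change, Ms4a6c knockout against wild type, of 129 genes with a mean of at least 1 CPM by distance from Trib3 in Mb, with genes past the adjusted test in red. Gm14226 is drawn at its fitted value although its knockout counts were under the limit of 3. The genes in red lie 2674 to 3503 kb from Trib3 and are lower. Trib3 at 1.32, which was chosen on this difference, stands above all the genes drawn.

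Over the 9 libraries, among 16537 genes with a mean of at least 1 CPM, the gene most like Trib3 was Mettl7a1, a methyltransferase-like protein, with r = 0.99. Its level was 292 to 303 CPM in wild-type mice, 339 to 380 CPM in Ms4a6c knockout mice and 311 to 333 CPM in cluster knockout mice. Plekha8, Tcp11l1, Hemk1, Cpsf4, 2810021J22Rik, Galm, A730020E08Rik, Fmo2 and Arhgap40 followed, with r from 0.98 down to 0.95. None of the 10 is among the members or on the pathway lists, and A730020E08Rik alone passed the adjusted test in the Ms4a6c knockout, at 0.59 (SE 0.10, edgeR adjusted p = 0.0313). For Ddit3 the most alike were Lzic, Poldip3 and Pik3ip1, with r from 0.96 to 0.94. For Hspa5 they were Pdia6, Cdk2ap1 and Slc6a9, with r from 0.98 to 0.97, of which Pdia6 and Slc6a9 are on the pathway lists. These r are descriptions: the points share libraries and fall into groups by genotype and gland level.

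Per length, the levels in wild-type mice gave an order of the members by abundance of RNA. Length was that of all exons GENCODE gives a gene, merged, and the order rests on that choice. In CPM per kb of exon Atf5 was at 588, Hspa5 at 126, Atf4 at 91.3, Nupr1 at 49.6, Asns at 24.9, Ddit3 at 16.8, Trib3 at 7.38, Eif2ak3 at 6.70, Sesn2 at 4.41 and Chac1 at 4.35. The values of Asns and Chac1 rest on gland-rich wild type 1. Without it Asns was at 12.4, below Ddit3 at 17, and Chac1 at 1.58, and the other members kept their order. With all 3 mice, neighbors in this order overlapped between mice for Nupr1 and Asns, Asns and Ddit3, Trib3 and Eif2ak3, and Sesn2 and Chac1. In the Ms4a6c knockout Trib3 was at 18.5 ± 5.03 CPM per kb and Ddit3 at 21.2 ± 2.10 (SD, n = 3). By this length Trib3 was below Ddit3 in each of the 9 mice, by 22.7 against 23.5 and 20 against 20.6 CPM per kb in Ms4a6c knockout 2 and 3. In CPM not divided by length Trib3 was above Ddit3 in Ms4a6c knockout 2 and 3, at 48.2 against 40.3 and 42.4 against 35.2.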

How the data were processed

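RNA of the main olfactory epithelium of 9 mice, 3 per genotype by the labels, was sequenced from directional poly-A libraries. The authors aligned the reads to mm10 with STAR 2.6.1 and deposited expected counts per gene, estimated with RSEM 1.3.1 and not normalized. The submitters' processing notes also name DESeq2 1.30.1 and R 4.0.0.

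After rounding, genes reaching 10 counts in total over the 9 libraries were kept. Tests were quasi-likelihood F tests (edgeR 4.0.16, R 4.3.3) from a joint fit of the 3 genotypes with TMM scaling. Benjamini-Hochberg adjustment covered all 23225 genes, with a threshold of 0.05. Each standard error was taken as the absolute log2 fold change over the root of the F statistic. The labels do not say whether mice of a genotype shared a litter, so p-values measure the spread between these mice. An exact permutation test of 3 mice against 3 cannot give less than p = 0.1. The limit of 3 counts covers counting error only. The edgeR step was tested on simulated counts, with changes planted in the Ms4a6c knockout only, in genes with a mean of at least 1 CPM. Against wild type, 71 of 100 planted 2-fold and 92 of 100 planted 4-fold changes were called, with 12 calls among unchanged genes. In the simulated cluster knockout against wild type, where nothing was planted, 0 genes were called.

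The members, the 9 pathway lists and the 14 marker lists were chosen with earlier results of these data known. The genes named are the members, the ends of each list by log2 fold change in each knockout (mean of at least 1 CPM), the genes most like Trib3, Ddit3 and Hspa5 by Pearson's r on log2(CPM + 1), and genes called within 5 Mb of a member. Those of Chac1 are given by count, and any other gene is named as a member of a checked list or as chosen after its values were seen. Positions came from GENCODE M21 (GRCm38), which matched 99.6% of genes, and promoters from RefSeq. Near-identical transcripts were sought with blastn 2.17.0, at 90% identity over 300 bases. Results were recomputed with the scaling of DESeq2, 2 other filters, fits of 2 genotypes, a replicate block, DESeq2 1.42.0 as the test and each mouse left out. Omission of both gland-rich libraries, the gland sum as a covariate and sex as a term were added after the data were seen.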

Additional observations from a re-analysis of the deposited data

How the results depend on the processing

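Each count of calls was recomputed under 18 alternatives. In Ms4a6c knockout against wild type 1 of the 10 members passed, Trib3, and leaving out 1 mouse at a time gave 0 to 1, with 0 without wild type 2, wild type 3 or Ms4a6c knockout 3. The log2 fold change of Trib3 there ranged from 1.15 to 1.53 over the alternatives, with the adjusted p under 0.05 in 15 of 18 and at most 0.0848. Since Trib3 was chosen on this difference, these values describe the dependence on processing and are not a test of Trib3. In cluster knockout against Ms4a6c knockout 0 members passed, and 1, Trib3, passed with no filter, with DESeq2 and without Ms4a6c knockout 1, so that leaving out 1 mouse at a time gave 0 to 1. Trib3 had an adjusted p of 0.0127 with no filter, 0.000354 with DESeq2 and 0.00509 without that mouse, and 0.3023 at most. The Ms4a6c knockout values chose Trib3, so these p-values too are descriptions. In cluster knockout against wild type 0 members passed under every alternative. The 151 list genes gave 0 calls in every comparison and alternative except 1, Creb3l1, in Ms4a6c knockout against wild type with the gland sum as a covariate. The causes were not tested.

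Over all genes, calls in Ms4a6c knockout against wild type numbered 101, and 345 with DESeq2, 182 with no filter, 350 without both gland-rich libraries, 197 with the gland sum as a covariate, and 59 to 159 leaving out 1 mouse at a time. In cluster knockout against wild type they numbered 6, and 18 with DESeq2, 2 with the replicate block, 4 for the 2 genotypes alone, 3 with sex as a term, and 3 to 7 leaving out 1 mouse at a time. Between the knockouts they numbered 103, and 271 with DESeq2, 155 with no filter, 166 with the gland sum, and 66 to 121 leaving out 1 mouse at a time.

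With the replicate number as a block, Trib3 had a log2 fold change of 1.31 in the Ms4a6c knockout (edgeR adjusted p = 0.0477), again a description. In the cluster knockout it was 0.41, and 1 and 0 members were called. Deviations from group means of same-numbered mice correlated from -0.62 to 0.12 over 9 pairs (mean -0.13). Those of different-numbered mice correlated by 0.07 on average over 18 pairs. The gland-rich libraries carry different numbers and correlated at 0.56, so these values cannot show whether the replicate numbers pair the mice.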
